A study of Mus musculus with 12 samples.

Results

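The interferon-induced genes described here are 34 genes that mouse cells switch on when they sense an interferon. They were chosen by gene symbol, with earlier results of these data known. The list holds 6 immunity-related GTPases (Igtp, Irgm1, Irgm2, Iigp1, Tgtp1 and Tgtp2) and 5 guanylate-binding proteins (Gbp2, Gbp3, Gbp5, Gbp6 and Gbp7), called gamma-type GTPases below. It also holds 14 type I response genes, namely Oas1a, Oas2, Oas3, Oasl1, Oasl2, Ifit1, Ifit2, Ifit3, Isg15, Usp18, Mx2, Rsad2, Ifi44 and Bst2. The other members are the transcription factors Irf1, Irf7, Irf9 and Stat2, the antigen presentation genes Psmb8, Psmb9, Tap1 and Nlrc5, and the chemokine Cxcl9. All 34 symbols were found among the 24061 listed, and all 34 were among the 14107 that passed the filter on low counts.

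RNA came from whole-heart samples of male C57BL/6J mice between 2 and 4 months old on a chow diet. HKII+/- animals, heterozygous for hexokinase II (6 libraries, replicates 11, 12, 16, 19, 20 and 22), were set against HKII+/+ animals (6 libraries, replicates 13, 14, 15, 17, 18 and 21). No treatment, infection or interferon dose is given in the labels for either genotype. Poly(A) RNA was sequenced, and levels are given in CPM, counts scaled to a common TMM-adjusted library total, the scaling edgeR uses.

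Interferons are secreted signals that warn cells of infection. Type I interferons act through Ifnar1 and Ifnar2 and the kinases Jak1 and Tyk2, and lead to a complex with Stat2 and Irf9 that binds a promoter element called the ISRE. Interferon gamma acts through Ifngr1 and Ifngr2 and the kinases Jak1 and Jak2, and its best known promoter element is the GAS. Both forms induce overlapping sets of genes, and the immunity-related GTPases and guanylate-binding proteins are best known as gamma targets that attack the membranes around intracellular microbes, whereas the 2-5A synthetases, IFIT proteins and Isg15 are best known as antiviral type I targets. In an uninfected heart such genes are transcribed at a low, basal level.

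Some libraries stood apart before any interferon-induced gene was considered. HKII+/- replicate 11 and HKII+/+ replicate 13 carry the submitters' remark that they may be outliers and are called the marked libraries below. Their TMM factors were 0.787 and 0.76, against 0.992 to 1.09 in the 10 other libraries. Hk2, the gene whose dose differs, measured 255.7 to 354 CPM in the unmarked HKII+/- libraries and 471 to 542.5 CPM in the unmarked HKII+/+ libraries. It measured 568.2 CPM in the library labelled HKII+/- replicate 11, above the unmarked HKII+/+ libraries, and 652.6 CPM in HKII+/+ replicate 13. Both of these values depend on the low TMM factors of the marked libraries. Over total counts alone, Hk2 in replicate 11 (13360 of 29924460 counts) still lay above each unmarked HKII+/- library and below each unmarked HKII+/+ library. The nearest were HKII+/- replicate 22 (18109 of 51556592) and HKII+/+ replicate 21 (10661 of 21594153). Replicate 13 (9952 of 20070429) then lay within the unmarked HKII+/+ range. Cardiomyocyte markers, all 8 of which passed the filter, summed to between 70080 and 205830 CPM per library, so each held heart muscle. These sums do not show which other tissue or which chambers a sample held. Markers of airway epithelium summed to 295.6 CPM in HKII+/- replicate 11 and to at most 1.94 CPM elsewhere. HKII+/- replicates 19 and 22 were low in atrial markers, at 316.1 and 432.5 CPM in all, against at least 2361 CPM in each of the others. Results are therefore given with all 12 libraries and with the 10 unmarked ones. Total counts ran between 17263209 and 51556592 per library.

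The promoters of the genes on which the results turn are shown first. Each is a RefSeq window on GRCm38.p6 of 300 bases, 250 before and 50 after the annotated start, and windows were matched for 28 of the 34 genes. Capitals mark matches, on either strand, to an ISRE core, searched as GAAA, any 2 bases and GAAA, and to a GAS core, searched as TTC, any 3 bases and GAA. Igtp, Irgm2, Tgtp1 and Irgm1 are shown because these GTPases were highest in the same library, and Bst2 and Oas1a because they were highest in another library.
Igtp promoter, chr11:58199306-58199605, plus strand: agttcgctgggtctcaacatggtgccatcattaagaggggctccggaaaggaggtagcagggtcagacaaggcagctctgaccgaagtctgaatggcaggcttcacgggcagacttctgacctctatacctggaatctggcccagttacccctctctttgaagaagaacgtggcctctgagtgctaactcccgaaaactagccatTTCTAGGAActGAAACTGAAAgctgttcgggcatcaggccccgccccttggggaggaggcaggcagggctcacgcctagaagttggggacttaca
Irgm2 promoter, chr11:58214727-58215026, plus strand: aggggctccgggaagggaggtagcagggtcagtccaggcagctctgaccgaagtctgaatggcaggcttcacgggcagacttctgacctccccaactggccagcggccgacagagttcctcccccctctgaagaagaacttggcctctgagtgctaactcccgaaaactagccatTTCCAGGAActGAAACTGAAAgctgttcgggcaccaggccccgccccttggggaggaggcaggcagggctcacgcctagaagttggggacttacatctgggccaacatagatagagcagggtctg
Tgtp1 promoter, chr11:48992197-48992496, minus strand: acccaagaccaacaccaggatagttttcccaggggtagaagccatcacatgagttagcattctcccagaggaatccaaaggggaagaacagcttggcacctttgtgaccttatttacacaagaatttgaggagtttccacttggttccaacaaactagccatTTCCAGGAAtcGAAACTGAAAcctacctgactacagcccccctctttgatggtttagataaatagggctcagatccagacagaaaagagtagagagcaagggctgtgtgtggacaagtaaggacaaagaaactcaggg
Irgm1 promoter, chr11:48871371-48871670, minus strand: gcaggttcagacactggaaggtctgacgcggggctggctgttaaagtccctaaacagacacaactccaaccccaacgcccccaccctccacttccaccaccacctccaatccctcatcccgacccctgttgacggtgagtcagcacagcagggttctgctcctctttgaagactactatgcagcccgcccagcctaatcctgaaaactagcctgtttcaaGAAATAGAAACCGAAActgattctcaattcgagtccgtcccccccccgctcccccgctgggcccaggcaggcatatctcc
Bst2 promoter, chr8:71537423-71537722, minus strand: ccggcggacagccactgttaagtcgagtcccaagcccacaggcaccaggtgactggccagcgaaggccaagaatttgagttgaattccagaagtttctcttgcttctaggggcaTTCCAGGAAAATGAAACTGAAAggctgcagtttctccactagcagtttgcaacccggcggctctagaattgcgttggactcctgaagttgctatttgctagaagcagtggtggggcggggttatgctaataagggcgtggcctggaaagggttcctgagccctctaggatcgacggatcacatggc
Oas1a promoter, chr5:120907476-120907775, minus strand: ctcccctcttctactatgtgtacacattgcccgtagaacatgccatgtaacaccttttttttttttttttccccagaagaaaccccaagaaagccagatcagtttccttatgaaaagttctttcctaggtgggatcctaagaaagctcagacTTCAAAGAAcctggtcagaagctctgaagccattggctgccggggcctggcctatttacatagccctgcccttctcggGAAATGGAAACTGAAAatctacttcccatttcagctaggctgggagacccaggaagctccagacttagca
In Igtp, Irgm2, Tgtp1 and Tgtp2 the GAS match began 11 bases before the ISRE match, with 2 bases between them. The Igtp and Irgm2 windows were 92.1% identical over 265 aligned bases, and those of Tgtp1 and Tgtp2 were 87.7% identical over 187. The Irgm1 window held overlapping ISRE matches and no GAS match, and in the Bst2 window the GAS match overlapped an ISRE match. In Oas1a the GAS match began 78 bases before the nearest ISRE match.

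An ISRE match was present in 17 of the 28 promoters (60.7%), against 3.99% of 27025 genes with a promoter in the same table. A GAS match was present in 11 (39.3%), against 9.55% of all genes, and both in 8 (28.6%), against 0.614%. All 9 gamma-type GTPases with a window had an ISRE match and 6 had a GAS match. Of the 11 type I response genes with a window, 7 had an ISRE match and 3 had a GAS match. Among the other 8 genes, 1 had an ISRE match and 2 had a GAS match. A match describes the letters of this window and does not show that a factor binds there.

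No interferon ligand was detectable in more than a trace. Of 9 ligand genes in the tables, none passed the filter on low counts. Ifng had 0 to 2 counts per library and Ifnk 0 to 1, while Ifnb1, Ifna1, Ifna2, Ifna4, Ifne, Ifnl2 and Ifnl3 had 0 counts in each of the 12 libraries. A count of 0 allows up to 3 counts, which is 0.0586 to 0.197 CPM depending on the library. These limits cover counting error only.

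The receptors and kinases were present in every library. None of the genes named here was called. On the scale of fitted log2 fold changes with 12 libraries, the type I receptor subunits Ifnar1 and Ifnar2 were at 0.09 and 0.02, and the gamma receptor subunits Ifngr1 and Ifngr2 at 0.13 and -0.08. Il10rb, a subunit shared with the receptor of type III interferons, was at 0.07. The kinases Jak1, Jak2 and Tyk2 were at -0.07, -0.01 and -0.01, and the transcription factor Stat3 at 0.08 (SE 0.10). Without the marked libraries the direction turned for Ifngr1 (-0.06), Jak1 (0.01) and Jak2 (0.02). Ifnar1 was then at 0.01, Ifnar2 at 0.004, Ifngr2 at -0.02, Il10rb at 0.03, Tyk2 at -0.06 and Stat3 at 0.09. In the library labelled HKII+/- replicate 11, Ifngr1 measured 129.8 CPM, against 50.1 to 83.1 CPM in the other 11 libraries, and Jak1 and Jak2 were the lowest of all at 66.2 and 13.99 CPM.

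The 4 transcription factors among the 34 genes were highest in HKII+/- replicate 19 and overlapped between the genotypes. Irf1, an interferon-induced factor that itself binds the ISRE, had 25.1, 27.1 and 40.3 CPM (lowest, median and highest) in HKII+/- hearts, against 25.6, 28.4 and 32.4 CPM in HKII+/+ hearts. Irf7, which amplifies type I interferon production, had 8.83, 10.7 and 15.2 CPM in HKII+/- hearts, against 9.78, 10.4 and 12.3 CPM in HKII+/+ hearts. Their HKII+/- medians lay within the HKII+/+ ranges. Irf9, the DNA-binding partner of Stat2, had 17.7, 21.8 and 28.0 CPM in HKII+/- hearts, against 18.03, 19.3 and 22.8 CPM in HKII+/+ hearts. Stat2 had 26.5, 35.3 and 48.7 CPM in HKII+/- hearts, against 28.9, 33.0 and 39.2 CPM in HKII+/+ hearts. In HKII+/- replicate 19 these genes stood 1.43 to 1.48 times the median of the other 11 libraries, so none of them reached 2-fold. Irf9 was one of the genes with the smallest unadjusted p without the marked libraries, with a log2 fold change of 0.16 (SE 0.12, p = 0.191 in edgeR's quasi-likelihood test, n = 5 per genotype, and an exact two-sided permutation p of 0.238). With 12 libraries it was 0.13 (SE 0.14).

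Among the immunity-related GTPases was the gene with the largest single-library rise of the list, Igtp. Igtp, an IRG protein that regulates its relatives on cell membranes and lies at chr11:58199556-58207591 on the plus strand of GRCm38, had 7.87, 15.6 and 90.5 CPM (lowest, median and highest) in HKII+/- hearts, against 8.525, 13.4 and 27.7 CPM in HKII+/+ hearts. The value of 90.5 CPM belonged to HKII+/- replicate 19, and the 5 other HKII+/- libraries lay between 7.87 and 25.4 CPM, inside or just below the HKII+/+ range. Irgm2, a second regulatory IRG protein at chr11:58199618-58222782, had 3.83, 27.6 and 93.4 CPM in HKII+/- hearts, against 7.21, 24.3 and 40.1 CPM in HKII+/+ hearts. Irgm1, the third regulatory one, at chr11:48861968-48871683 on the minus strand, had 4.72, 21.7 and 48.2 CPM in HKII+/- hearts, against 6.36, 20.5 and 28.7 CPM in HKII+/+ hearts. In all 3 the highest library was HKII+/- replicate 19 and the lowest were the marked HKII+/- replicate 11 and HKII+/+ replicate 13.

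The effector IRG genes shared the highest library, HKII+/- replicate 19. Iigp1, whose protein coats the vacuoles of parasites, had 7.10, 43.0 and 149 CPM in HKII+/- hearts, against 8.92, 36.9 and 69.6 CPM in HKII+/+ hearts. Tgtp1 had 0.128, 1.88 and 6.30 CPM in HKII+/- hearts, against 0.0656, 1.54 and 4.37 CPM in HKII+/+ hearts. Tgtp2 had 0, 3.73 and 11.5 CPM in HKII+/- hearts, against 0.328, 3.22 and 7.97 CPM in HKII+/+ hearts. For each of them HKII+/+ replicate 21 came next, and the marked libraries were the lowest. The value of 0 for Tgtp2 was a count of 0 in HKII+/- replicate 11, which allows up to 3 counts or 0.127 CPM. Transcripts of Tgtp1 and Tgtp2 are 99.8% identical over 2810 bases, and how their reads were split is uncertain. Igtp and Irgm2 share 162 exonic bases in the GENCODE annotation, 8.01% of the exons of Igtp, and their transcripts are 83.0% identical over 1147 aligned bases.

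**Figure D1:**
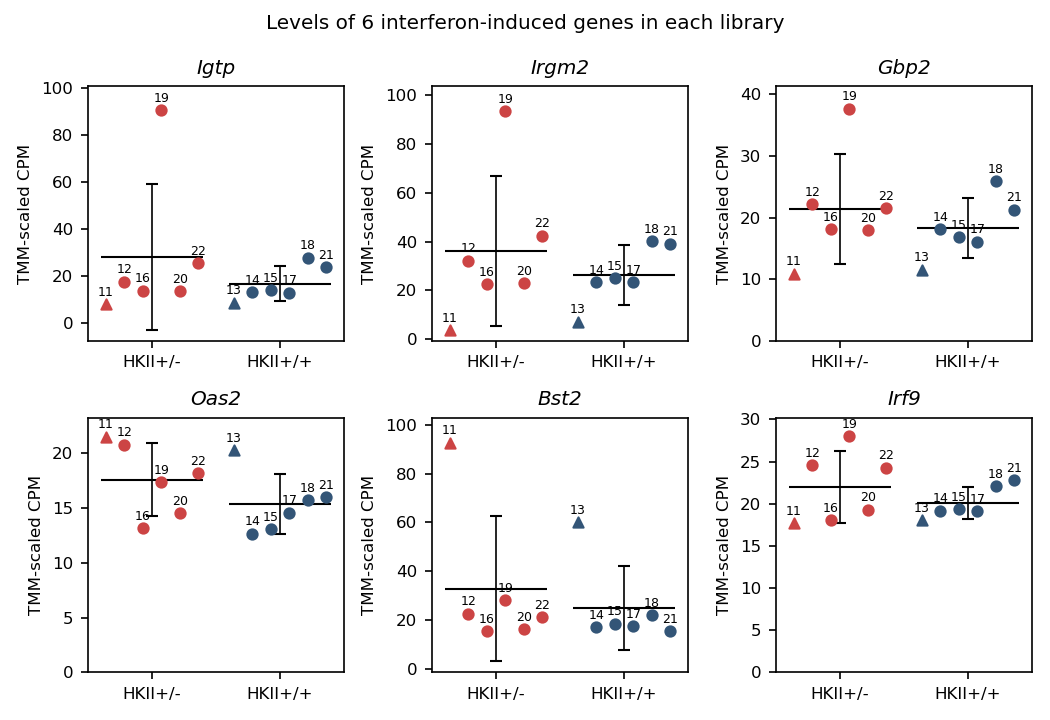
Levels of Igtp, Irgm2, Gbp2, Oas2, Bst2 and Irf9 in TMM-scaled CPM (vertical axis) in each HKII+/- library (left in each panel, red) and each HKII+/+ library (right, blue), numbered by replicate. Horizontal lines are means, bars are the SD over 6 libraries, and triangles are the libraries marked by the submitters. Igtp and Irgm2 reached 90.5 and 93.4 CPM in HKII+/- replicate 19, whereas Bst2 reached 92.7 CPM in HKII+/- replicate 11 and 60.0 CPM in HKII+/+ replicate 13.

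The guanylate-binding proteins, large GTPases that attack microbial vacuoles and bacterial surfaces, were highest in the same library with smaller differences. Gbp2 had 10.9, 19.8 and 37.6 CPM (lowest, median and highest) in HKII+/- hearts, against 11.5, 17.5 and 25.9 CPM in HKII+/+ hearts. Gbp5, which also promotes inflammasome assembly, had 5.74, 10.9 and 22.5 CPM in HKII+/- hearts, against 6.75, 11.8 and 16.1 CPM in HKII+/+ hearts. For both genes the marked libraries were the lowest of their genotype and the genotypes overlapped. Gbp6 had 11.1, 22.4 and 56.8 CPM in HKII+/- hearts, against 15.5, 22.6 and 48.3 CPM in HKII+/+ hearts. Gbp7 had 7.19, 27.5 and 56.2 CPM in HKII+/- hearts, against 9.57, 26.7 and 34.9 CPM in HKII+/+ hearts. Gbp3 had 13.3, 16.5 and 33.5 CPM in HKII+/- hearts, against 13.4, 16.5 and 21.3 CPM in HKII+/+ hearts. Unlike the 4 other guanylate-binding proteins, Gbp3 was not low in the marked libraries, where it measured 21.01 CPM in HKII+/- replicate 11 and 17.6 CPM in HKII+/+ replicate 13. Gbp6 shares 29.0% of its exonic bases with the annotated gene Gm43302 and Gbp7 11.3% with Gm43802, on the same strand. How reads of the shared bases were counted is uncertain.

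The 2-5A synthetases and their relatives, which make the messenger that activates RNase L or share its fold, behaved otherwise. All 5 were highest in the marked HKII+/- replicate 11 and lay near the other libraries in replicate 19. Oas1a, at chr5:120896256-120907521 on the minus strand, had 1.72, 2.11 and 4.72 CPM (lowest, median and highest) in HKII+/- hearts, against 1.42, 2.03 and 2.56 CPM in HKII+/+ hearts. Oas2, at chr5:120730333-120749853, had 13.2, 17.8 and 21.5 CPM in HKII+/- hearts, against 12.7, 15.2 and 20.3 CPM in HKII+/+ hearts. The genotypes overlapped for both, and in HKII+/- replicate 19 Oas1a measured 2.08 CPM and Oas2 17.4 CPM. Oas3 was the lowest gene of the list, at 0.160, 0.356 and 1.66 CPM in HKII+/- hearts, against 0.233, 0.379 and 0.501 CPM in HKII+/+ hearts, from 4 to 39 counts per library. Oasl1, a repressor of Irf7 translation in mice, had 1.403, 1.69 and 3.19 CPM in HKII+/- hearts, against 1.32, 1.61 and 1.88 CPM in HKII+/+ hearts. Oasl2 had 9.09, 13.4 and 33.9 CPM in HKII+/- hearts, against 11.8, 13.6 and 16.5 CPM in HKII+/+ hearts. Without the marked libraries the highest HKII+/- value fell inside the HKII+/+ range for Oasl1 and Oasl2.

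The 3 IFIT genes, whose proteins bind foreign RNA ends and curb viral translation, did not share a pattern. Ifit1 had 3.13, 4.797 and 17.7 CPM in HKII+/- hearts, against 3.67, 4.998 and 7.61 CPM in HKII+/+ hearts, with the marked libraries highest in each genotype. Ifit2 had 4.89, 17.8 and 28.9 CPM in HKII+/- hearts, against 6.69, 18.9 and 23.4 CPM in HKII+/+ hearts, with the marked libraries lowest in each genotype. Ifit3 had 5.69, 6.84 and 11.4 CPM in HKII+/- hearts, against 5.71, 6.36 and 10.9 CPM in HKII+/+ hearts. Its highest libraries were HKII+/- replicate 19 and HKII+/+ replicate 18, and the genotypes overlapped for all 3 genes.

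Among the other antiviral genes Bst2 had the widest spread. Bst2 encodes tetherin, which holds budding virus at the cell surface, and had 15.4, 21.9 and 92.7 CPM (lowest, median and highest) in HKII+/- hearts, against 15.5, 18 and 60.0 CPM in HKII+/+ hearts. Both high values came from the marked libraries, and the 10 unmarked libraries lay between 15.4 and 28.1 CPM. Isg15, a ubiquitin-like tag, had 1.80, 2.70 and 3.83 CPM in HKII+/- hearts, against 1.95, 2.67 and 4.00 CPM in HKII+/+ hearts. Usp18, the protease that removes that tag, had 2.77, 3.73 and 7.996 CPM in HKII+/- hearts, against 3.08, 4.14 and 5.05 CPM in HKII+/+ hearts. Mx2, a dynamin-like antiviral gene annotated as a polymorphic pseudogene in this strain's reference genome, had 1.68, 2.07 and 4.47 CPM in HKII+/- hearts, against 1.01, 2.03 and 3.48 CPM in HKII+/+ hearts. Isg15 was highest in HKII+/+ replicate 13, and Usp18 and Mx2 were highest in HKII+/- replicate 11 with HKII+/+ replicate 13 next. Rsad2, which encodes viperin, had 14.1, 24.1 and 41.5 CPM in HKII+/- hearts, against 16.8, 32.3 and 39.1 CPM in HKII+/+ hearts. Ifi44 had 2.17, 3.48 and 5.39 CPM in HKII+/- hearts, against 2.36, 3.79 and 4.37 CPM in HKII+/+ hearts. Both were lowest in the marked libraries, and Rsad2 had the lowest fitted difference of the 34 genes.

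Of the genes of class I antigen presentation, Psmb8, Psmb9 and Tap1 had their highest values in HKII+/- replicates 11 and 19. Psmb8, a catalytic subunit of the immunoproteasome, had 10.1, 13.7 and 29.05 CPM in HKII+/- hearts, against 11.2, 14.004 and 20.2 CPM in HKII+/+ hearts. Its highest library was HKII+/- replicate 11, followed by replicate 19 at 26.6 CPM. Psmb9, another such subunit, had 5.24, 6.53 and 11.9 CPM in HKII+/- hearts, against 5.84, 6.69 and 9.16 CPM in HKII+/+ hearts. Tap1, a subunit of the peptide transporter, had 13.3, 16.99 and 39.6 CPM in HKII+/- hearts, against 15.2, 17.1 and 27.6 CPM in HKII+/+ hearts. Nlrc5, the transactivator of class I genes, had 7.66, 11.9 and 24.1 CPM in HKII+/- hearts, against 7.52, 9.75 and 16.1 CPM in HKII+/+ hearts. The last 3 were highest in HKII+/- replicate 19. Psmb8 shares 14.7% of its exonic bases with an antisense gene, Gm20496, and the strand setting of the counting is not given in the sources used here, so reads of the pair cannot be told apart. Cxcl9, a gamma-induced chemokine that draws T cells, had 1.28, 4.20 and 8.53 CPM in HKII+/- hearts, against 0.918, 4.05 and 5.79 CPM in HKII+/+ hearts, highest in HKII+/- replicate 19 and lowest in the marked libraries.

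Per kilobase of annotated exon, the order of levels was led by Bst2 at a median of 22.01 CPM per kb over the 12 libraries. Gbp2 (7.19 CPM per kb), Irf1 (7.09), Iigp1 (6.90), Igtp (6.78), Rsad2 (6.67) and Irgm2 (6.58) came next and lay close together. At the other end stood Ifi44 (0.587), Mx2 (0.573), Tgtp1 (0.490) and Oas3 (0.0503 CPM per kb). The gamma-type GTPases and the type I response genes thus overlapped in level, with genes of both near the top and the bottom. Over the whole order the gamma-type GTPases tended to stand higher.

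**Figure D2:**
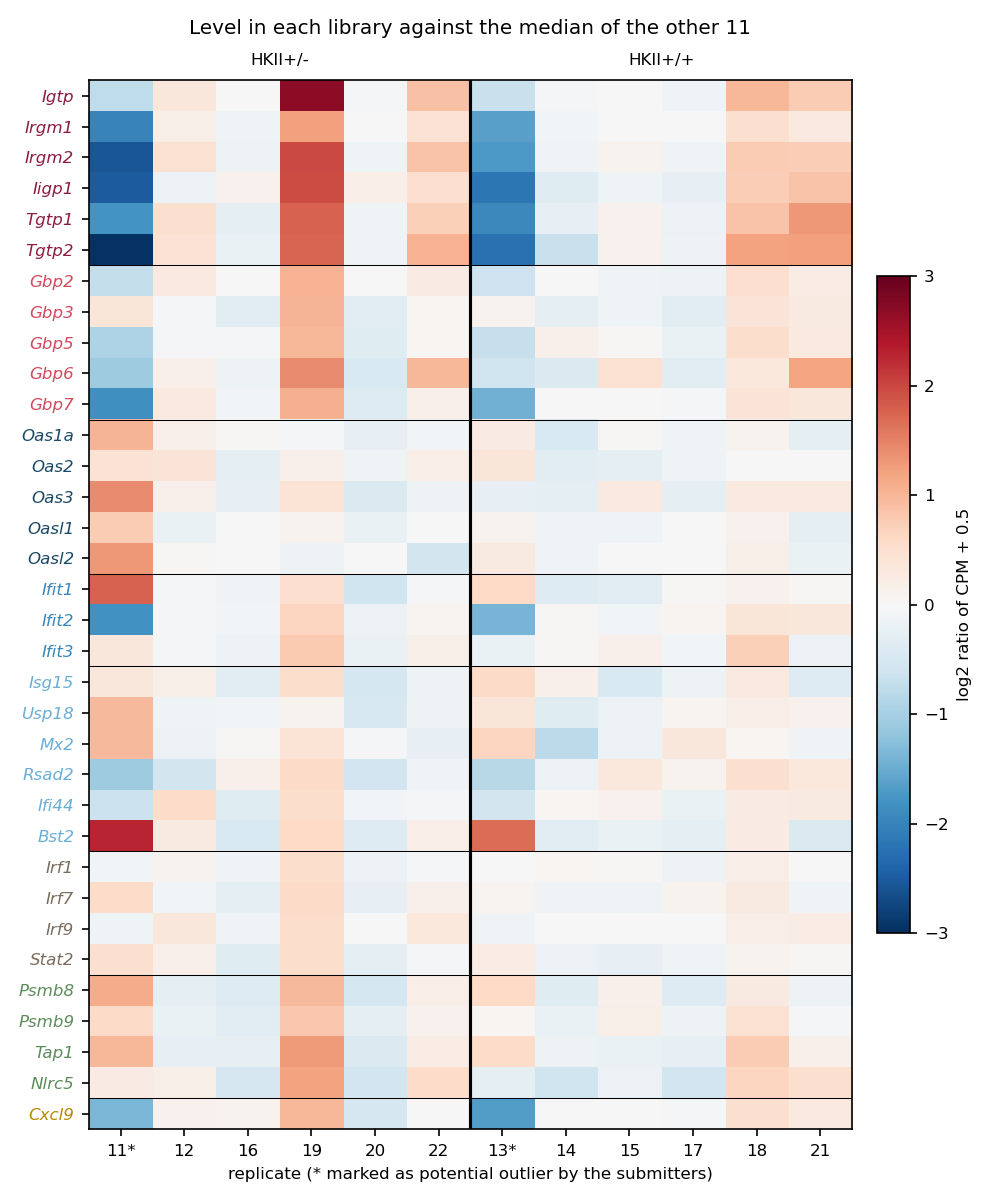
Log2 ratio of each gene's CPM + 0.5 in a library to the median of the 11 other libraries, for 34 interferon-induced genes (rows, ordered and coloured by role) and 12 libraries (columns, HKII+/- left, HKII+/+ right, colour scale between -3 and 3). HKII+/- replicate 19 is red over the upper 11 rows, the gamma-type GTPases, whereas the marked replicates 11 and 13 are blue for most of those and red for Bst2.

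The genotype comparison asked whether lowering the dose of Hk2 was accompanied by a different level of any of these genes. With all 12 libraries, edgeR's quasi-likelihood test with Benjamini-Hochberg adjustment called 0 of the 34 genes, against 0.0% of the 14107 genes tested. At an unadjusted p below 0.05 there were 0 of the 34 and 0.262% of all genes. DESeq2 and limma voom also called 0 of the 34, and 0 of all genes. At an unadjusted p below 0.05 either had 0 of the 34, against 64 and 33 of all 14107 genes. Hk2, the targeted gene, was thus itself not called with 12 libraries, so 0 calls there do not show equal levels. The median SE over all genes in edgeR was 0.25 with 12 libraries and 0.09 with the 10 unmarked ones. Without the marked libraries 0 of the 34 were called, against 0.00707% of 14139 genes, and 0 were at an unadjusted p below 0.05, against 2.8% of all genes. Every one of the 34 genes overlapped between HKII+/- and HKII+/+ libraries. The same share over all genes tested is not given here, so this overlap is a description only.

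The fitted differences leaned to higher values in HKII+/- hearts, and that lean was lost when 1 library was left out. With 12 libraries 32 of 34 genes had a log2 fold change above 0, against 49.5% of all genes, and their median was 0.20, against -0.001 for all genes tested. Ifit2 (-0.05) and Rsad2 (-0.24) were the exceptions. With the 10 unmarked libraries 29 of 34 were above 0, against 47.3% of all genes, and the median was 0.13. Oas3, Oasl2 and Usp18 were then also below 0. Without HKII+/- replicate 11 alone the count was 25 of 34, against 49.1% of all genes, and the median 0.10. Without HKII+/- replicate 19 alone the count was 14 of 34, against 48.61% of all genes, and the median -0.05. Without that library and both marked ones the count was 6 of 34, against 47.64% of all genes, and the median was -0.09. The genes share their libraries, so a count of signs is a description of the list and carries no test. With sample quality weights in limma voom 22 of 34 were above 0, against 46.09% of all genes, and the median was 0.02.

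By role, all 6 immunity-related GTPases were above 0 with 12 libraries, with a median log2 fold change of 0.34, and with 10 libraries, with a median of 0.37. For the 5 guanylate-binding proteins the medians were 0.15 and 0.16, with all 5 above 0 in both fits. The 5 genes of the 2-5A synthetase group were all above 0 with 12 libraries (median 0.20), and 3 of them with 10 (median 0.03). The 4 genes of class I presentation were above 0 in both fits, with medians of 0.24 and 0.16. None of these differences passed the test.

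Igtp had the smallest unadjusted p of the list with 12 libraries. Its mean level was 28.0 ± 31.1 CPM (SD, n = 6) over HKII+/- hearts and 16.6 ± 7.40 CPM (SD, n = 6) over HKII+/+ hearts. On the log2 scale the fitted difference came to 0.76 (SE 0.55), with a 95% interval of -0.44 to 1.95, p = 0.195 in edgeR's quasi-likelihood test, an adjusted p of 0.999988 and an exact two-sided permutation p of 0.574. The 10 unmarked libraries gave 0.82, with a 95% interval of -0.31 to 1.94. Leaving out HKII+/- replicate 19 from the 12 gave -0.09. Irgm2 was at 0.46 (95% interval -0.80 to 1.72) with 12 libraries, at 0.50 with 10, and at -0.09 without HKII+/- replicate 19.

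Oas2 had the smallest unadjusted p without the marked libraries. Its mean level there was 16.8 ± 3.03 CPM (SD, n = 5) over HKII+/- hearts and 14.4 ± 1.51 CPM (SD, n = 5) over HKII+/+ hearts. The fitted difference on the log2 scale was 0.23, with a 95% interval of -0.04 to 0.50, p = 0.0823 in edgeR's quasi-likelihood test, an adjusted p of 0.999866 and an exact two-sided permutation p of 0.159, where the smallest possible with 5 against 5 is 0.00794. With 12 libraries the log2 fold change of Oas2 was 0.20 (SE 0.16). Oas1a was at 0.33 (SE 0.26) with 12 libraries and 0.14 (SE 0.16) with 10. Bst2 was at 0.39 (SE 0.50) with 12 libraries, at 0.20 (SE 0.15) with 10, and at -0.27 without HKII+/- replicate 11 alone, since HKII+/+ replicate 13 then remained. The 12-library interval of Bst2 was -0.70 to 1.47. The intervals of Igtp, Irgm2 and Bst2 with 12 libraries include both no difference and differences of more than 2-fold.

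**Figure D3:**
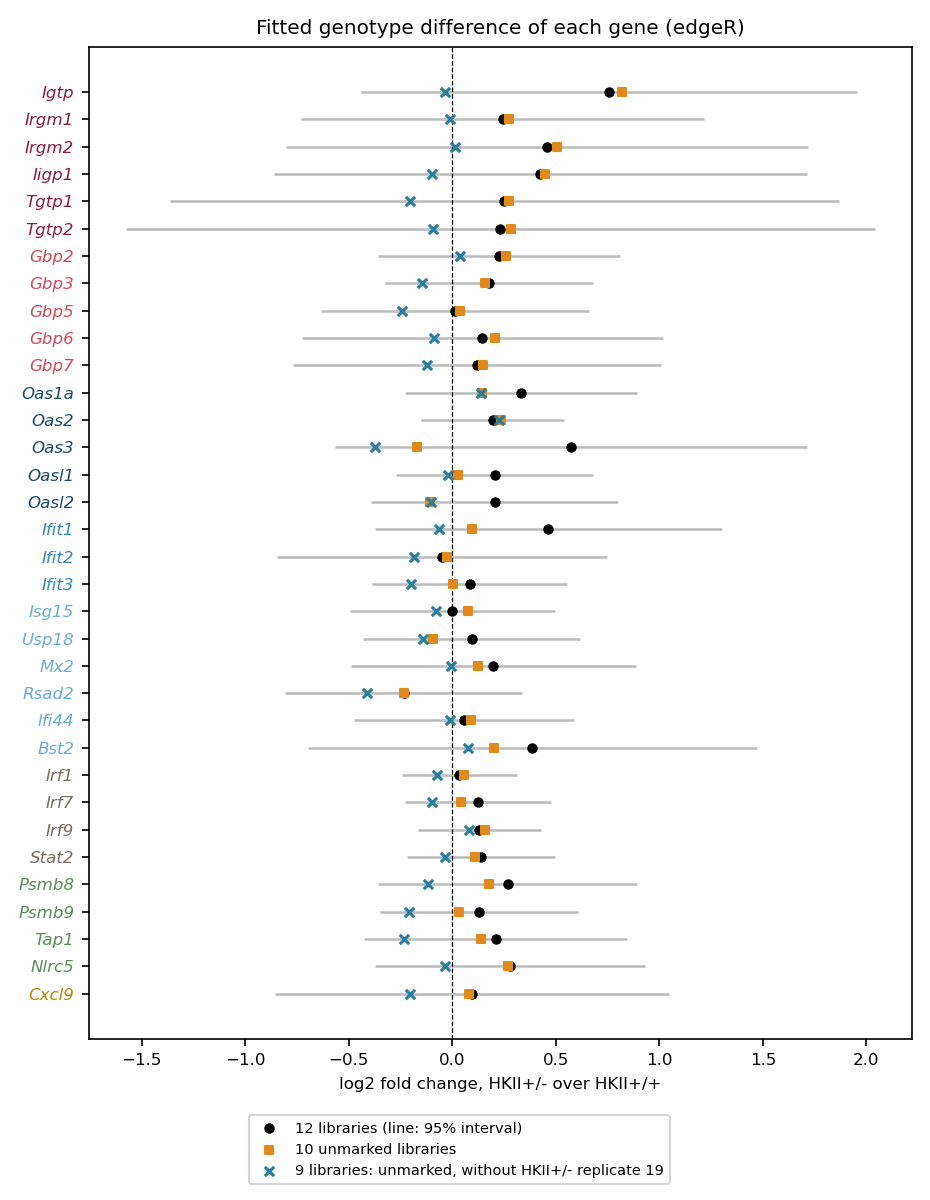
Fitted log2 fold change of each of the 34 genes, HKII+/- over HKII+/+, in edgeR (horizontal axis), with 12 libraries (black points, lines are 95% intervals), with the 10 unmarked libraries (orange squares) and with 9 libraries, the unmarked ones without HKII+/- replicate 19 (blue crosses). All 34 intervals cross 0. The medians of the 3 sets of points are 0.20, 0.13 and -0.09.

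The other genes of the pathway, from lists by role, also gave no call. Among 8 inhibitors of the signal, 4 were above 0 and 0 were called. Socs1, which blocks the Jak kinases, was at 0.48 (SE 0.52) on the log2 fold change scale and at 0.06 without the marked libraries, and the phosphatase gene Ptpn11 at -0.13 (SE 0.11), or -0.08 without them. Among 17 sensors and adaptors, 10 were above 0 and 0 were called. Zbp1, a sensor of Z-form nucleic acid, was at 0.35 (SE 0.38) and Irf5 at -0.13 (SE 0.13), or 0.24 and -0.14 without the marked libraries. Among 10 further genes of class I molecules and their loading, 8 were above 0, with H2-K1 at 0.24 (SE 0.20) and H2-T23 at 0.31 (SE 0.34), or 0.16 and 0.13 without the marked libraries. Of 7 class II genes, 5 were above 0, with H2-Ab1 at 0.31 (SE 0.33) and H2-Eb1 at 0.30 (SE 0.34), or 0.09 and 0.11 without the marked libraries. Of 39 further interferon-induced genes tested, 22 were above 0 and 0 were called, with Gbp10 at 0.98 (SE 0.70), highest in HKII+/- replicate 19 at 7.90 CPM and at 0.99 without the marked libraries, and Trim21 at 0.37 (SE 0.30), or 0.01 without the marked libraries. In each of these groups 0 genes had an unadjusted p below 0.05 in edgeR with 12 libraries.

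Both gene groups were then set against each other within each library, as the mean log2(CPM + 0.5) of the 11 gamma-type GTPases and of the 14 type I response genes. The gamma-type mean was 5.34 in HKII+/- replicate 19, between 3.70 and 4.35 in HKII+/- replicates 12, 16, 20 and 22, and 2.35 in the marked HKII+/- replicate 11. In HKII+/+ hearts it lay between 3.68 and 4.49 in the unmarked libraries and was 2.64 in the marked replicate 13. The spread of this group over libraries was thus wide, at an SD of 0.98 in HKII+/- hearts and 0.68 in HKII+/+ hearts (n = 6 each). The type I mean was 2.32 to 3.13 in HKII+/- hearts and 2.37 to 2.79 in HKII+/+ hearts, with SDs of 0.31 and 0.14. Its highest value, 3.13, was in HKII+/- replicate 11, the library with the lowest gamma-type mean.

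The gamma-type mean exceeded the type I mean in each of the 10 unmarked libraries, by 1.30 to 2.43 in HKII+/- hearts and by 1.17 to 1.95 in HKII+/+ hearts on the log2 scale. In the marked libraries the order turned, to -0.78 in HKII+/- replicate 11 and -0.05 in HKII+/+ replicate 13. The difference averaged 1.27 ± 1.09 in HKII+/- hearts and 1.23 ± 0.69 in HKII+/+ hearts (SD, n = 6 each), 0.03 apart. Without the marked libraries it averaged 1.67 ± 0.47 and 1.49 ± 0.31 (n = 5 each), 0.18 apart. Both gaps were smaller than the SD between libraries of either genotype.

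**Figure D4:**
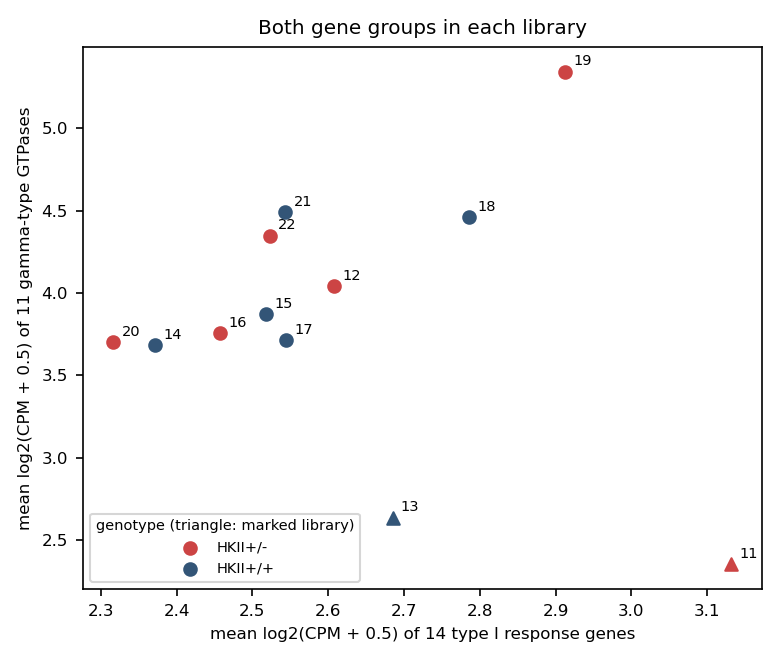
Mean log2(CPM + 0.5) of 11 gamma-type GTPases (vertical axis) against that of 14 type I response genes (horizontal axis) in each of 12 libraries, HKII+/- in red and HKII+/+ in blue, with triangles for the marked libraries. HKII+/- replicate 19 lies highest at 5.34, and the marked replicates 11 and 13 lie lowest at 2.35 and 2.64.

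HKII+/- replicate 19 held the clearest single-library difference. In it 12 of the 34 genes (35.3%) stood over 2-fold above the median of the other 11 libraries, against 0.191% of all genes tested, 27 of 14107. These were Igtp (6.42-fold), Irgm2 (3.93), Iigp1 (3.87), Tgtp1 (3.43), Tgtp2 (3.34), Gbp6 (2.65), Tap1 (2.41), Irgm1 (2.34), Nlrc5 (2.32), Gbp7 (2.10), Gbp2 (2.05) and Gbp3 (2.03), on the scale of CPM + 0.5. They include 10 of the 11 gamma-type GTPases, with Gbp5 just under the line at 1.99-fold, and none of the 14 type I response genes, of which Ifit3 was highest at 1.73-fold. The library held the highest value of 22 of the 34 genes (64.7%), against 4.52% of all genes tested. The gene groups thus differed within this library: relative to the median of the others, the gamma-type mean was higher by 1.53 and the type I mean by 0.37 on the log2 scale.

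Of the 27 genes over 2-fold in HKII+/- replicate 19, 12 were among the 34. Others from the pathway lists were Gbp10 (6.25-fold), Gbp4 (3.24), Cd274, the checkpoint ligand PD-L1 (2.82), and Zbp1 (2.12). Ifng had 0.0484 CPM there and the other ligands 0. Class I molecules and their loading genes summed to 1294 CPM in this library, against 765.2 to 1232 CPM in the other 11. Class II genes summed to 431.2 CPM, against 173 to 318.4 CPM in the other unmarked libraries. The marked HKII+/- replicate 11 and HKII+/+ replicate 13 had 472.2 and 322.4 CPM.

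Cell type markers were read beside this difference. Markers of T and NK cells, the usual sources of interferon gamma, summed to 5.72 CPM in HKII+/- replicate 19, against 2.55 to 7.15 CPM elsewhere. Of the 18 such markers listed, 2 passed the filter, and none was at 0 in this library. Macrophage and monocyte markers summed to 389.5 CPM, against 292.2 to 744.1 CPM in the others. Endothelial markers summed to 1403 CPM, against 1135 to 1338 CPM in the other unmarked libraries and 1391 and 1524 CPM in marked replicates 11 and 13. All 5 atrial markers were under 0.5 of the median of the others in HKII+/- replicate 19. HKII+/- replicate 22, also low in atrial markers, had 1 gene of the 34 over 2-fold, Tgtp2 at 2.05, against 0.0638% of all genes. In HKII+/+ replicate 21, 4 of the 5 atrial markers were under 0.5 (Nppa, Sln, Myl4 and Myl7), with a sum of 2361 CPM, and in HKII+/+ replicate 18 only Bmp10 was, with a sum of 4115 CPM. Bmp10 stood there at 0.0028 of the median, close to its 0.0036 in replicate 19 and 0.0029 in replicate 22. HKII+/- replicates 19 and 22 and HKII+/+ replicates 18 and 21 were also the 4 libraries with the highest gamma-type means. HKII+/+ replicate 17 went the other way, with an atrial sum of 3166 CPM, below that of replicate 18, and a gamma-type mean of 3.71. In HKII+/+ replicate 13, which had a low gamma-type mean, 2 atrial markers were under 0.5. In bulk samples fewer cells of a type and less RNA per cell cannot be told apart, and the part of cell composition or of the heart chambers sampled in these values was not tested.

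In the other unmarked libraries the counts were low. HKII+/+ replicate 21 had 3 genes over 2-fold (Tgtp1 at 2.46, Tgtp2 at 2.36 and Gbp6 at 2.26), against 0.241% of all genes. HKII+/+ replicate 18 had 1, Tgtp2 at 2.31, against 0.113%. HKII+/- replicates 12, 16 and 20 had 0 each, against 0.376%, 0.0922% and 0.128% of all genes, and HKII+/+ replicates 14, 15 and 17 had 0 each, against 0.291%, 0.326% and 0.0142%. None of the 34 genes was under 0.5 of the median in any unmarked library. The share of all genes under 0.5 was 0.0709%, 0.00709%, 1.55%, 0.0142% and 2.13% in HKII+/- replicates 12, 16, 19, 20 and 22. It was 0.206%, 0.0142%, 0.0496%, 0.439% and 0.34% in HKII+/+ replicates 14, 15, 17, 18 and 21. After replicate 19, the gamma-type mean was highest in HKII+/+ replicates 21 and 18 and HKII+/- replicate 22, at 4.49, 4.46 and 4.35, so the next libraries came from both genotypes.

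The marked libraries differed at many genes, and the interferon-induced genes went both ways there. In HKII+/- replicate 11, 6 of the 34 genes (17.6%) were over 2-fold, against 19.6% of all genes: Bst2 (4.91-fold), Ifit1 (3.38), Oas3 (2.66), Oasl2 (2.46), Psmb8 (2.15) and Oas1a (2.02). In the same library 10 (29.4%) were under 0.5 of the median, against 25.4% of all genes: Irgm1, Irgm2, Iigp1, Tgtp1, Tgtp2, Gbp6, Gbp7, Ifit2, Rsad2 and Cxcl9. In HKII+/+ replicate 13, 1 gene was over 2-fold, Bst2 (3.19), against 12.4% of all genes, and 8 (23.5%) were under 0.5, against 19.1%. In HKII+/- replicate 11 both shares were near those of all genes. In HKII+/+ replicate 13 the share over 2-fold, 2.94% of the 34, was below that of all genes, and the share under 0.5 was near it.

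Transcript GC content went along with the deviations in the marked libraries. Over 13472 genes with a value, the Spearman correlation between GC content and a library's log2 deviation was 0.62 in HKII+/- replicate 11 and 0.64 in HKII+/+ replicate 13, against 0.11 in HKII+/- replicate 19. It was negative in some unmarked libraries, at -0.41 in HKII+/- replicate 16 and -0.47 in HKII+/+ replicate 21. Genes of a library share its depth and preparation, and these are descriptions. The median GC content was 45.6% for the gamma-type GTPases, 50.8% for the type I response genes and 49.5% for all 34 genes. Over the 34 genes the same correlation was 0.68 in HKII+/- replicate 11, 0.63 in HKII+/+ replicate 13, -0.42 in HKII+/- replicate 19 and -0.64 in HKII+/+ replicate 21. After the median deviation of genes of like GC content was removed, the gamma-type mean deviation was -0.65 in HKII+/- replicate 11, against -1.52 before, and -0.54 in HKII+/+ replicate 13, against -1.24 before. The type I mean deviation grew, to 0.765 from 0.577 in HKII+/- replicate 11 and to 0.292 from 0.118 in HKII+/+ replicate 13. In replicate 19 the gamma-type mean deviation was 1.55, against 1.53 before. There 13 of the 34 genes were then over 2-fold, against 0.215% of the 13472 genes. After the removal 4 of the 34 genes were over 2-fold in HKII+/- replicate 11, against 16.6% of all genes, and 3 under 0.5, against 16.2%. In HKII+/+ replicate 13 these were 2, against 9.57%, and 4, against 8.9%. Bst2 was still over 2-fold in both marked libraries, and Irgm1, Irgm2 and Tgtp2 were still under 0.5 in both. Ifit1 was over 2-fold in both after the removal; before it, Ifit1 stood at 1.51-fold in HKII+/+ replicate 13.

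**Figure D5:**
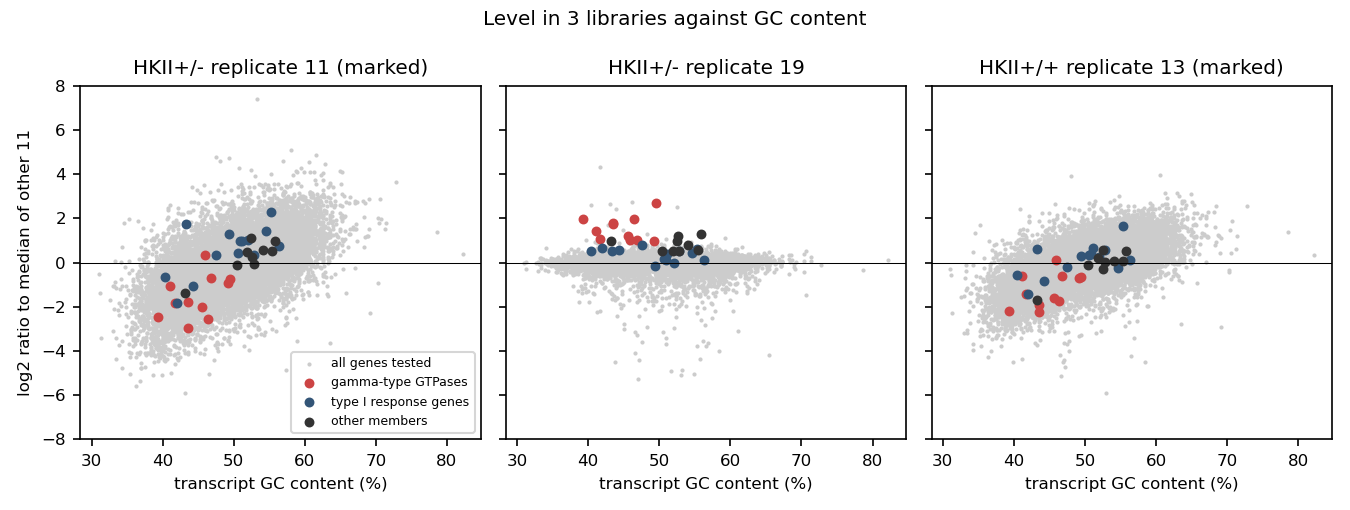
Log2 ratio of each gene in a library to the median of the 11 other libraries (vertical axis) against the GC content of its longest transcript in percent (horizontal axis), in HKII+/- replicates 11 and 19 and HKII+/+ replicate 13. Grey points are all genes tested with a value, red the gamma-type GTPases, blue the type I response genes and black the other interferon-induced genes. The grey cloud slopes upward in the marked replicates 11 and 13 and is flat in replicate 19, where the red points lie above it.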

How the data were processed

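The authors deposited whole-number read counts per gene symbol, 1 table per heart library (12 tables), with no normalization. Per the submitters' processing notes, STAR 2.4.0 and featureCounts 1.4.4 were used with mm10, also called GRCm38; for the annotation release and strand setting the sources used here give nothing. Per the labels' protocols, poly(A)-captured RNA was read as single ends of 100 nt. Total counts of 17263209 to 51556592 per library set the precision of low genes. Libraries were taken as separate animals from their titles alone, so p-values measure the spread between these samples.

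Counts were fitted in edgeR 4.0.16 (R 4.3.3; TMM, filterByExpr with a minimum count of 10, quasi-likelihood F-test, no covariate, 6 against 6) with Benjamini-Hochberg adjustment over all genes tested, at 0.05. CPM are counts over the TMM-adjusted total, on the usual scale. Single-library deviations used log2(CPM + 0.5) minus the median of the other 11 libraries. Single genes were also compared by exact permutation over 924 splits (252 without the marked libraries). Exon overlaps, GC content and coordinates came from GENCODE vM21 on GRCm38, and promoters from RefSeq on GRCm38.p6. The fits were also run on simulated data, with an outcome that is not reported here. Alternatives were RLE, upper-quartile and no scaling factors, other filters, DESeq2 1.42.0, limma 3.58.1, other folds and pseudocounts, and leaving out libraries; removal of the GC trend was added after seeing the data.

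The 34 genes, the pathway and marker lists and the rule for named genes were chosen with earlier results of these data known. Fold changes were printed for the 3 genes with the smallest p with 12 and with 10 libraries and the 3 largest single-library differences, which overlap, and for the 2 genes of each further list with the smallest p, besides the receptors and kinases, and Ifit2 and Rsad2 as the exceptions to a count. Some genes are not reported here. Further genes were named for being over 2-fold in replicate 19, once their values were known.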

Additional observations from a re-analysis of the deposited data

Results flagged for a closer look

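Within each genotype, the highest and the lowest library of each gene was compared with its nearest neighbour, as the gap divided by the whole range of the 6 libraries (Dixon's ratio, against its 95% critical value). Of 76 groups 15 exceeded it, where chance gives about 1 in 20. Of these, 7 concerned HKII+/- replicate 11, 7 concerned HKII+/+ replicate 13, both marked by the submitters, and 1 concerned HKII+/+ replicate 18.

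In HKII+/- replicate 11, Oas1a (0.691), Oasl1 (0.687), Oasl2 (0.684), Usp18 (0.638) and Bst2 (0.668) were far above the other HKII+/- libraries. Ifit2 (0.673) was far below them, and so was the gamma-type minus type I difference (0.647). In HKII+/+ replicate 13, Irgm1 (0.737), Irgm2 (0.679), Iigp1 (0.628), Gbp7 (0.768), Ifit2 (0.768) and Cxcl9 (0.763) were far below the other HKII+/+ libraries, and Bst2 (0.748) was far above them. In HKII+/+ replicate 18, Ifit3 (0.659) was far above the others of its genotype. On this log2 scale no gene was set apart in HKII+/- replicate 19. For the gamma-type GTPases except Gbp3, HKII+/- replicate 11 was the lowest of its genotype and widened the range that divides the gap. The ratio therefore cannot decide whether replicate 19 stood apart for them.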

How the results depend on the processing

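The count of interferon-induced genes called was 0 in every fit tried. The count of all genes called was 2 with sample quality weights and 1 without both marked libraries, against 0 with all 12. Leaving out single libraries gave 0 to 2 genes called (without both marked libraries, 1 without HKII+/- replicate 22 or HKII+/+ replicate 14 and 2 without HKII+/+ replicate 21), and 6 to 33 of the 34 genes above 0: 14 without HKII+/- replicate 19 and 6 when both marked libraries were left out as well. Over single left-out libraries the log2 fold change ran from -0.093 to 0.96 for Igtp and from -0.086 to 0.70 for Irgm2, both below 0 without HKII+/- replicate 19, and from -0.27 to 0.88 for Bst2, below 0 without HKII+/- replicate 11. With both marked libraries also left out it ran from -0.034, without replicate 19, to 1.01 for Igtp. The cause was not tested. At 3-fold in place of 2-fold, 7 genes in place of 18 stood out in at least 1 library, 5 of them in replicate 19 and 2 in replicate 11; at 1.5-fold these were 19 and 10. With total counts alone replicate 11 had 3 genes over 2-fold, and replicate 13 had 13 under 0.5 of the median, against 8. With the GC trend removed those under 0.5 were 3 in replicate 11 and 4 in replicate 13, against 16.2% and 8.9% of all genes. No paired analysis was possible because no replicate number occurs in both genotypes. Depth limits the ligands, Tgtp1 and Oas3, which rest on few counts.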

Other observations

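Of the 27 genes over 2-fold in HKII+/- replicate 19, several were on no list, and those given here are named after their values were seen. Gm4841 was the farthest from the other libraries, at 20.2-fold. Gm12250 was at 6.80-fold, F830016B08Rik at 6.08-fold and Gm12185 at 5.45-fold. Gm12185 shares 223 exonic bases with Tgtp1, and how reads of the shared bases were counted is uncertain. Capn11, a calpain, was at 5.75-fold. Fcgr4, an Fc receptor of myeloid cells, was at 2.43-fold, the class I molecule H2-Q5 at 2.15-fold, the collagenase Mmp13 at 2.08-fold and Apol10b at 2.03-fold. These values rest on a single library.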
